A study of Mus musculus with 15 samples.

Results

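The comparison set the olfactory bulbs of mice carrying a constitutively active form of CRHR1 against those of mice without CRHR1, the ends of the range of CRH signalling that the series spans. The 10 arrays were chosen by their titles, 5 for each group, out of 15 in the series. Each array measured total bulb RNA of 1 male mouse, 6 to 8 weeks old, 2 weeks after 500 nL of adeno-associated virus had been injected. In the active CRHR1 group the mice were C57Bl/6 animals of the CRHR-Cre line and the virus was AAV-flex (CA)CRHR, whose cargo is switched on by Cre, so that CRHR1-positive granule cells are its target. In the knockout group the mice were CRHR1-/- animals of strain 129S4/SvJae and the virus was AAV-flex GFP. The remaining 5 mice, here called the Cre GFP group, were CRHR-Cre mice on C57Bl/6 with AAV-flex GFP, stand for wild type in the labels, and were used to share the estimate of the spread and to show where each gene lay between the extremes. The labels rank the knockout group lowest and the active CRHR1 group highest in signalling. Strain, Cre line, viral cargo and receptor status all change together between the compared groups and cannot be told apart.

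CRH is a stress peptide that also acts locally within the bulb. Its receptor CRHR1 couples mainly to the stimulatory G protein that raises cAMP, and in the bulb it is found on granule cells, the inhibitory interneurons that are renewed through adult life. Crhbp encodes a secreted protein that binds CRH and limits its action. Interferons act through JAK kinases and STAT factors on short promoter elements and switch on guanylate-binding proteins, immunity-related GTPases and the machinery that loads peptides onto MHC class I.

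Levels below are log2 of the processed signal minus the 75th percentile of the same array, so that 0 is the level of that percentile and 1 unit is a doubling. Changes are the mean of the active CRHR1 group minus that of the knockout group (n = 5 each), with the standard error and the Benjamini-Hochberg adjusted p of limma over all 23440 genes. A gene is called where this p is under 0.05. The 75th percentile itself lay between 664 and 1171 signal units on the 15 arrays and 58.8% to 66.9% of probes were well above background, and the number of arrays limits the precision. The knockout arrays shared slide 1 with Cre GFP arrays 1 to 3, whereas the active CRHR1 arrays shared slide 2 with Cre GFP arrays 4 and 5. No slide therefore held both extremes, and a fit with slide as a fixed block rests on the Cre GFP arrays alone to link them. The value from that fit is given as the slide-block value. Knockout array 5 had the lowest 75th percentile, knockout array 3 was highest of its group in most immune gene lists, and active CRHR1 array 2 was lowest of its group in them. Bulk RNA cannot show whether fewer cells of a type or less RNA per cell lies behind a lower level.

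The extremes differed in 6582 of the genes tested (28.1%). Of these 2271 were higher in active CRHR1 bulbs (9.69%) and 4311 were lower (18.4%), so that 34.5% of the calls were higher. With arrays centred on their median the split was 1670 higher and 1974 lower, or 45.8% higher, and the median change over all genes on the scale used here was -0.08. Large differences ran the other way. Among genes past 2-fold 659 were higher (2.81%) and 213 lower (0.909%), and past 4-fold 171 were higher (0.73%) and 28 lower (0.119%). The median called rise was 1.63-fold and the median called fall 1.27-fold. In 4040 of the called genes, 61.4%, every array of one group lay above every array of the other, against 19.5% of all genes tested. With slide as a fixed block 804 genes were called, 370 higher (1.58%) and 434 lower (1.85%). Of the 6582 calls 751 were made in both fits in the same direction, 345 higher and 406 lower, while 6568 kept their sign. Leaving out knockout array 4, active CRHR1 array 1 or active CRHR1 array 5 left 4121, 4090 and 4186 calls, of which 2671, 2595 and 2679 were lower. The median standard error was 0.108 without the block and 0.19 with it.

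**Figure D1:**
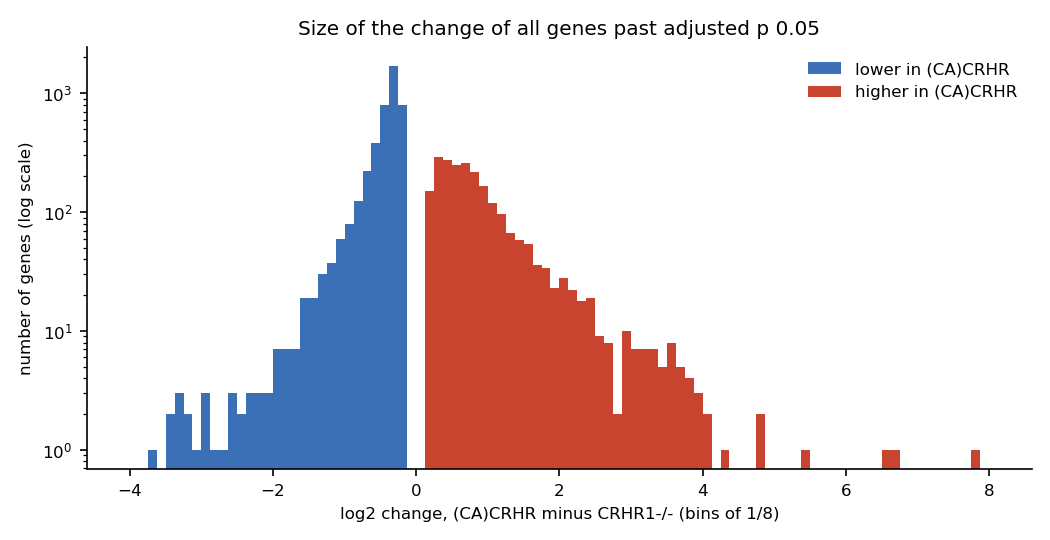
Histogram of the log2 change, active CRHR1 minus knockout, of the 6582 called genes; the horizontal axis is the log2 change in narrow bins of equal width and the vertical axis, logarithmic, the number of genes per bin. The 4311 falls crowd close to the threshold (median -0.34) and the 2271 rises reach further out (median 0.71).

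The receptor gene was lower in the knockout bulbs without being lost. Crhr1 (chromosome 11, 104036691 to 104036750, mm9) read 3.32, 3.12, 3.00, 3.14 and 3.23 on the knockout arrays and 3.62, 3.81, 3.57, 3.79 and 3.83 on the active CRHR1 arrays. All active CRHR1 arrays lay above all knockout arrays. The difference was 0.56 ± 0.09, or 1.48-fold (adjusted p = 0.00111; slide-block value 0.79, adjusted p = 0.0169), and a second probe gave 0.54. Whether either probe lies in the deleted part of the gene or in the viral coding sequence was not determined, so the level is no check of either label.

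Crhbp, the CRH-binding protein (chromosome 13, 96201903 to 96201962), read 1.27, 0.96, 0.96, 0.95 and 1.42 in knockout bulbs and 1.90, 1.95, 1.91, 1.97 and 1.85 in active CRHR1 bulbs. The groups did not overlap, and the active CRHR1 arrays lay close together. It was 0.80 ± 0.14 higher, 1.74-fold (adjusted p = 0.00159), but the call was lost with the slide block (0.49, adjusted p = 0.207). Crh, the ligand, differed by -0.21 (adjusted p = 0.388) and Crhr2, the other receptor, by -0.03 (adjusted p = 0.913). The mean Crh level was below that of the Cre GFP bulbs at both extremes, by 0.65 (adjusted p = 0.0554) in the knockout and 0.85 (adjusted p = 0.00806) in the active CRHR1 group. The urocortin genes Ucn, Ucn2 and Ucn3, which encode the other ligands, did not pass the filter on dim probes.

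**Figure D2:**
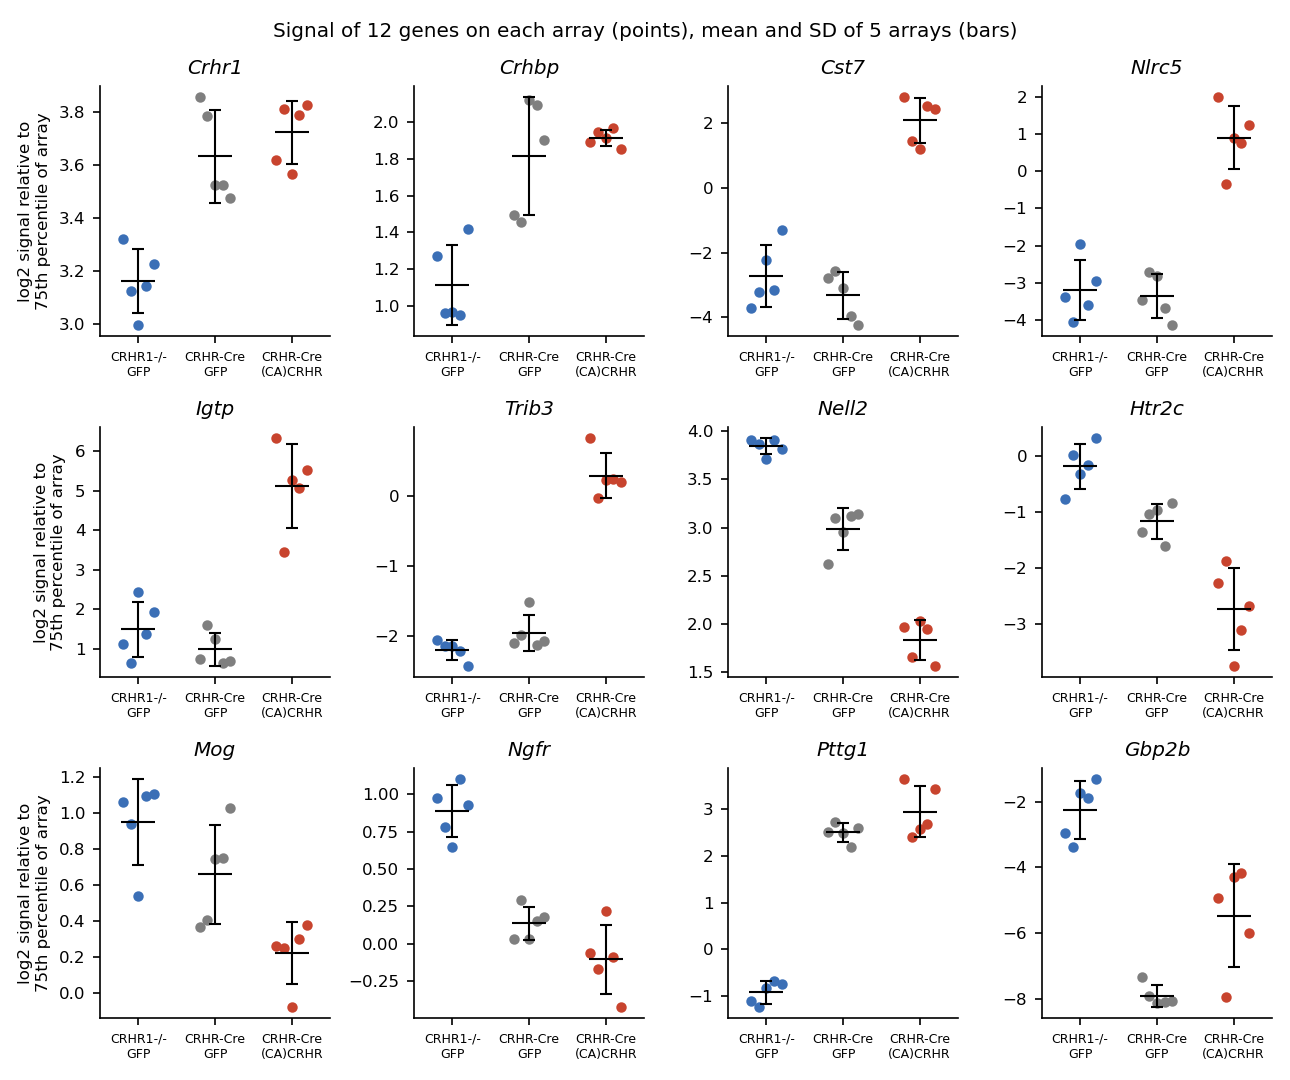
Level of 12 genes on each array in the knockout, Cre GFP and active CRHR1 groups (log2 signal minus the array's 75th percentile; points are arrays, bars mean and SD). Crhr1, Crhbp, Cst7, Nlrc5, Igtp, Trib3 and Pttg1 are higher and Nell2, Htr2c, Mog, Ngfr and Gbp2b lower in active CRHR1 than in knockout bulbs.

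Interferon-induced GTPases had the highest median change of the 52 gene lists examined. Of the 19 tested 17 were higher and 1 lower, with a median change of 2.44 against -0.08 over all genes, and 12 were called higher with the slide block. These proteins coat and disrupt vacuoles that hold intracellular pathogens. Igtp, an immunity-related GTPase (chromosome 11, 58020927 to 58020986), read 1.12, 0.65, 2.43, 1.37 and 1.94 in knockout bulbs and 6.32, 3.44, 5.26, 5.07 and 5.51 in active CRHR1 bulbs. The weakest active CRHR1 array, array 2, was still above the strongest knockout array, array 3. The change was 3.62 ± 0.45, or 12.3-fold (adjusted p = 0.000251; slide-block value 4.15, adjusted p = 0.0187).

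Its relatives were raised as well. Irgm2 was 9.17-fold higher (adjusted p = 0.000315), Irgm1 5.87-fold (adjusted p = 0.00041) and Tgtp1 12.4-fold (adjusted p = 0.00288). Gbp2, a guanylate-binding protein (chromosome 3, 142300719 to 142300778), read -0.24, -0.75, 1.04, -0.38 and 0.20 against 4.68, 1.81, 3.23, 3.55 and 3.85, a change of 3.45 ± 0.46 or 10.9-fold (adjusted p = 0.000388; slide-block value 4.23, adjusted p = 0.0169). Gbp8 was well above background on 0 of 5 knockout arrays and was at least 10.5-fold higher; such a bound sets the bright group's mean against, on each dim array, whichever is higher of that probe's signal and the lowest one well above background.

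The member that went the other way was Gbp2b, a guanylate-binding protein gene also listed as varying between strains of mice. It read -2.97, -3.38, -1.74, -1.90 and -1.33 in knockout bulbs and -4.94, -7.93, -4.30, -4.16 and -5.99 in active CRHR1 bulbs. The groups did not overlap, and the probe was well above background on all 5 knockout, 0 Cre GFP and 3 active CRHR1 arrays. The gene thus passed the filter on dim probes through the knockout group alone. Its change of -3.20 ± 0.61 (adjusted p = 0.00298) lost its call with the slide block (-2.91, adjusted p = 0.149). Gbp5, chosen after its values were seen as the tested member without a call, differed by 0.19 by its brightest probe (adjusted p = 0.154), but a second kept probe gave 2.78.

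Promoter sequence was available for 10 of these GTPase genes, in RefSeq's table for build GRCm38.p6. The letters GAAANNGAAA, the core of the interferon-stimulated response element to which STAT and IRF factors bind, were searched on both strands of the 250 bases before each start. All 10 held a match, against 936 of 27025 genes in the table (3.46%) and 3.2% of the 12988 tested genes that it covers. The list was drawn up as interferon-induced genes, so this share describes the list and is no result of these data. Near copies among the 10 are not separate observations. The 10 include Gbp2b, which was lower, and Gbp5, whose probes disagreed. The windows of 30 bases around 1 match per gene are shown because this element is common to the genes of the list that moved most; they are turned so that the match, in capitals, reads from left to right, and Gbp3 and Irgm1 hold 2 matches each.
Gbp2: ttaagacagtGAAAGTGAAActaaaagagt
Gbp2b: tgataaagaaGAAAGTGAAAttagaagtac
Gbp3: agggatctggGAAATAGAAActgaaactgt
Gbp5: tctctaaactGAAATTGAAActacacaagt
Gbp7: atggagaactGAAACTGAAActgcacacac
Irgm1: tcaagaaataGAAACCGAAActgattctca
Irgm2: tccaggaactGAAACTGAAAgctgttcggg
Igtp: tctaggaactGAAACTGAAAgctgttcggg
Tgtp1: tccaggaatcGAAACTGAAAcctacctgac
Tgtp2: tccaggaatcGAAACCGAAAcctactctga
The Igtp and Irgm2 windows differ at few letters, and so do those of Tgtp1 and Tgtp2, and whether a probe of one gene also reads its near copy was not tested. The matches shown lie between 15 and 165 bases before the start. A match is a description of the letters, and no binding was measured here.

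Over wider groups the share with these letters was smaller. Among promoters of genes called higher by at least 2-fold it was 60 of 335 (17.9%), among those lower by at least 2-fold 6 of 114 (5.26%), among all genes called higher 7.29% and among all called lower 2.57%. It was 4 of 14 (28.6%) among cAMP and CREB target genes and 3 of 14 (21.4%) among immediate early genes. The cAMP response element TGACGTCA was in 4 of the 335 (1.19%) and in 2 of the 114 (1.75%), against 2.84% of tested genes. Whole upstream stretches of 250 bases, in the direction of the gene, are given for Igtp and Gbp2, both among the most raised GTPases, and for Stat2, with the GAAANNGAAA match on either strand in capitals. Igtp lies on chr11:58199306-58199555, Gbp2 on chr3:142620413-142620662 and Stat2 on chr10:128270248-128270497, all on the plus strand.
Igtp: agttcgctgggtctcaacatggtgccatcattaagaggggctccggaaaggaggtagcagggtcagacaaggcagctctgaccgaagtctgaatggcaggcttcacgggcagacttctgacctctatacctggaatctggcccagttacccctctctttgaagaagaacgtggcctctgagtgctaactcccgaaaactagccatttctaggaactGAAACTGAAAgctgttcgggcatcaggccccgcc
Gbp2: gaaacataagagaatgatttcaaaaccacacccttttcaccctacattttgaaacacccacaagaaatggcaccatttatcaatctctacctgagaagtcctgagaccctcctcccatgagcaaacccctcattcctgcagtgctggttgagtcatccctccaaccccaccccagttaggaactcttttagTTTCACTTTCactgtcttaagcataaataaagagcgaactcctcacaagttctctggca
Stat2: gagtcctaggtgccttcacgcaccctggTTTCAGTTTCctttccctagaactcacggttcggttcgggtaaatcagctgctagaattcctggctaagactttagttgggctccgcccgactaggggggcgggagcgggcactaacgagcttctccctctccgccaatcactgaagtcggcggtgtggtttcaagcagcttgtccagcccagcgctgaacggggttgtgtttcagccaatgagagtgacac
In Gbp2 and Stat2 the GAAANNGAAA match is on the other strand, so that it reads as its reverse complement. Its leftmost base as printed lies 34 bases before the start in Igtp, 59 in Gbp2 and 222 in Stat2.

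Other interferon-stimulated genes rose almost without exception: 32 of 33 tested were higher and 0 lower (median change 1.92), and 17 were called higher with the slide block. Stat2, the signal carrier of type I interferon receptors, read 0.99, 1.13, 1.71, 1.24 and 1.37 against 3.44, 2.02, 2.53, 2.54 and 2.74. The groups did not overlap, array 1 being highest of the active CRHR1 group. Its change was 1.37 ± 0.20 (adjusted p = 0.000687), with a slide-block value of 1.42 that missed the threshold (adjusted p = 0.0534). Oas2, which senses double-stranded RNA, was 6.32-fold higher (adjusted p = 0.00051) and Irf8, a transcription factor of myeloid cells, 3.25-fold (adjusted p = 0.000421). Eif2ak2, the RNA-activated kinase that halts translation, was the member without a call and is named after its values were seen (0.50, adjusted p = 0.165). Xaf1 was 5.39-fold higher by its brightest probe (adjusted p = 0.000957), but a second kept probe gave -2.97.

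Of 11 genes for interferons, their receptors and JAK signalling 4 were higher and 0 lower. Ifng, which encodes interferon gamma (chromosome 10, 117882841 to 117882900), read -7.61, -7.80, -5.96, -6.91 and -5.94 in knockout bulbs and -1.53, -4.77, -3.47, -2.83 and -2.90 in active CRHR1 bulbs. It was well above background on 1 of 5 knockout and all 5 active CRHR1 arrays, and passed the filter through the active CRHR1 group. The change was 3.74 ± 0.62 (adjusted p = 0.00126; slide-block value 4.86, adjusted p = 0.0295). The feedback inhibitors Socs1 and Socs3 were 2.62-fold (adjusted p = 0.00285) and 1.92-fold (adjusted p = 0.000754) higher, and the kinase gene Tyk2 1.40-fold (adjusted p = 0.0187, or 0.0509 without knockout array 4). With the slide block 1 of the 4 was called, and that was Ifng, which was not well above background on most knockout arrays.

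**Figure D3:**
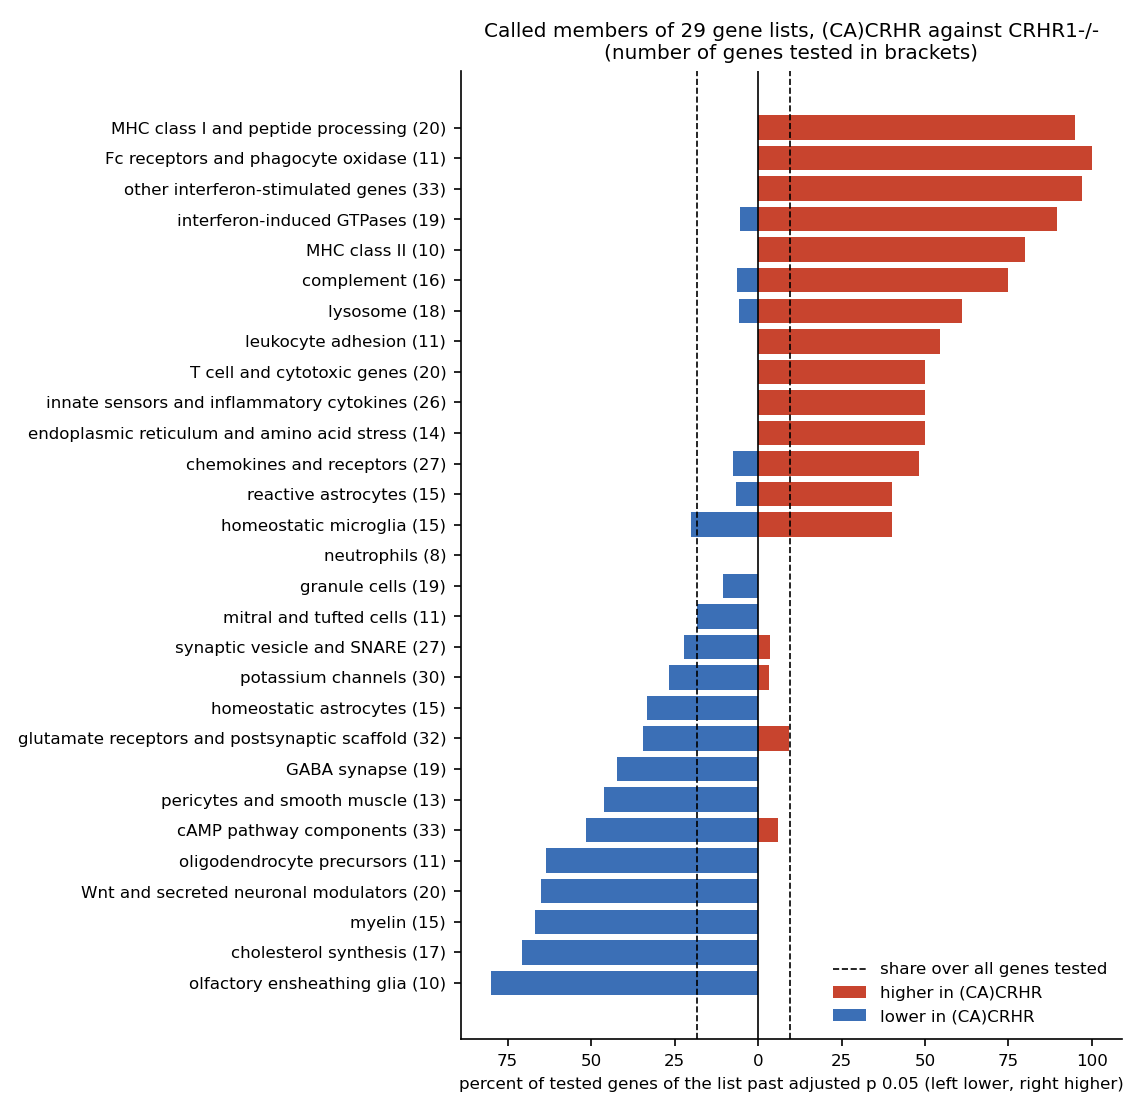
Share of the tested members of 29 gene lists called higher (right) and lower (left) in active CRHR1 against knockout bulbs, in percent of tested members, at an adjusted p under 0.05; dashed lines mark the shares over all genes tested (9.69% higher, 18.4% lower). Immune lists extend to the right, up to 11 of 11 Fc receptor and oxidase genes, and glial and neuronal lists to the left, up to 8 of 10 ensheathing glia genes.

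Genes of antigen presentation were higher as well. Of 20 genes for MHC class I and peptide processing 19 were higher and 0 lower (median change 1.65), 13 also with the slide block. Nlrc5, the transactivator of MHC class I (chromosome 8, 97051105 to 97051164), read -3.39, -4.06, -1.95, -3.59 and -2.96 against 1.98, -0.36, 0.89, 0.74 and 1.24. The lowest active CRHR1 array, array 2, was above the highest knockout array, array 3. The difference was 4.09 ± 0.44, 17.0-fold (adjusted p = 0.000107; slide-block value 4.99, adjusted p = 0.00604), and a second probe gave 2.49.

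Tap1, a subunit of the transporter that carries peptides to class I, was 7.67-fold higher (adjusted p = 0.00024), H2-Q5 15.5-fold (adjusted p = 0.000442), H2-Q7 4.05-fold (adjusted p = 0.000318) and H2-D1 3.45-fold (adjusted p = 0.000388). The H2 genes are near-identical in places and vary between the H-2 haplotypes of mouse strains, so that probe match may differ between the groups and was not tested. Psme1, a proteasome activator subunit named after its values were seen, was the member without a call (0.34, adjusted p = 0.0726).

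Of 10 MHC class II genes 8 were higher and 0 lower (median change 1.47), but 1 was called with the slide block. Leaving out any of 8 arrays (knockout 1, 2, 4 or 5, active CRHR1 1, 3, 4 or 5) left 5 higher. H2-DMa, which helps to load peptides, was 3.06-fold higher (adjusted p = 0.000984), Ctss, a protease that trims the invariant chain, 2.40-fold (adjusted p = 0.00133), and H2-Oa 4.44-fold (adjusted p = 0.00215). Active CRHR1 array 2 stood apart here. Its median over the list, relative to the knockout mean, was -0.04, while the others of its group were at 1.70 to 2.01.

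**Figure D4:**
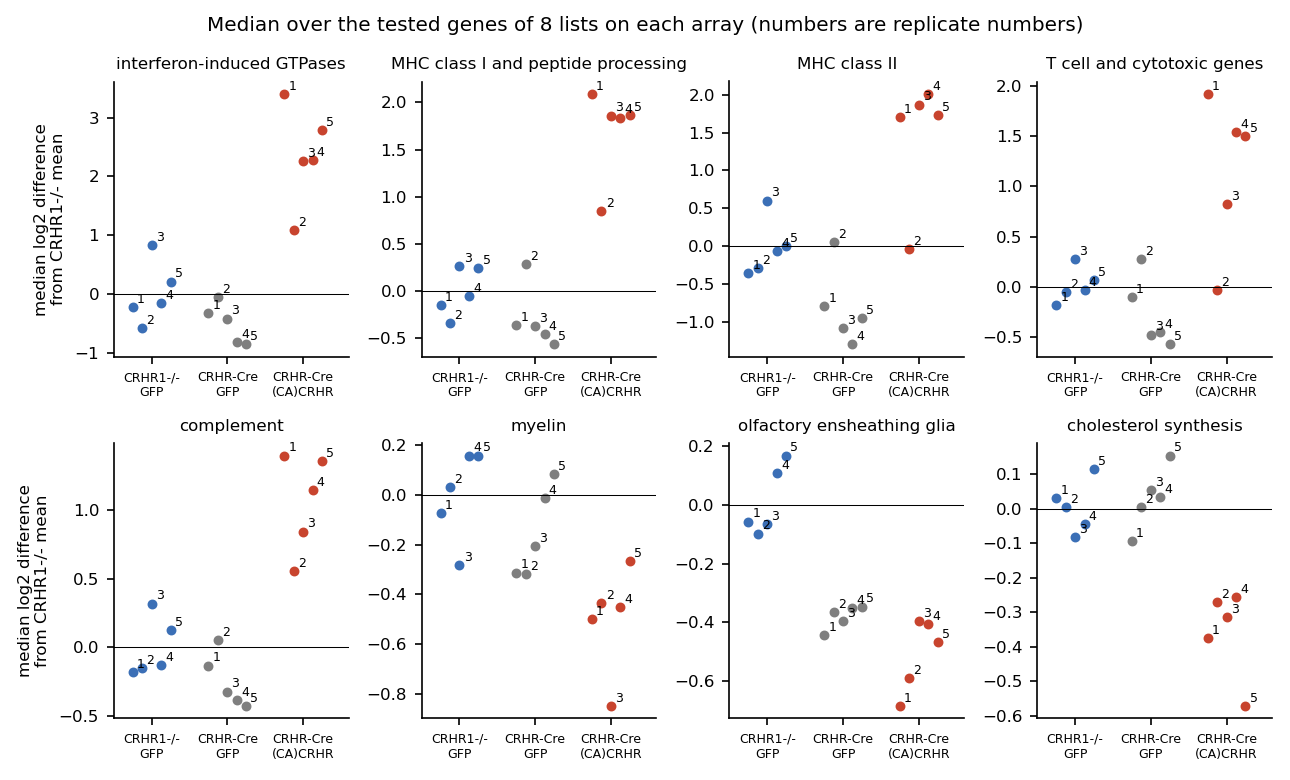
Median level of 8 gene lists on each array, relative to the knockout group's mean of each gene (log2 units; 1 point per array, numbered by replicate, 3 groups). Active CRHR1 array 2 is the lowest of its group in the interferon-induced GTPase list (1.09, others 2.26 to 3.40), and knockout array 3 the highest of its group (0.83).

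Chemokines, which attract leukocytes, were higher in 13 of 27 tested and lower in 2 (median change 1.01), and 6 were called higher with the slide block. Of the 27, 2 passed the filter only through the active CRHR1 group. Ccl2, which draws monocytes, read -1.90, -1.96, -0.46, -1.87 and -0.58 against 2.85, 0.14, 0.67, 1.21 and 1.68, 6.35-fold higher (adjusted p = 0.00228; slide-block value 3.74, adjusted p = 0.0294). All active CRHR1 arrays were above all knockout arrays, with array 2 the lowest again. Ccl5 was 5.39-fold (adjusted p = 0.0105) and Cxcl9, a target of interferon gamma, 16.3-fold higher (adjusted p = 0.0129). For Cxcl9 the groups overlapped, with knockout arrays 3 and 5 at -1.06 and -1.60 and active CRHR1 array 2 at -2.07. The 2 lower members, named after their values were seen, were the neuronal chemokine Cx3cl1 (-0.26, adjusted p = 0.0172) and Cxcl14 (-0.35, adjusted p = 0.0115).

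T cell and cytotoxic genes were higher in 10 of 20 tested and lower in 0 (median change 1.08), and 5 of the 20 passed the filter only through the active CRHR1 group. Leaving out active CRHR1 array 1 brought the count to 6, leaving out active CRHR1 array 2 to 15, and the slide block to 1. The granzyme genes Gzmb (8.65-fold, adjusted p = 0.00683; well above background on 1 of 5 knockout and all 5 active CRHR1 arrays) and Gzma (5.01-fold, adjusted p = 0.0106) and the cytokine receptor genes Il2rg (4.41-fold, adjusted p = 0.00117) and Il2rb (5.59-fold, adjusted p = 0.00917) were among those called. The markers that define T cells were divided. Cd3d was called (1.97, adjusted p = 0.0313, lost in 7 fits that each left out 1 array), while Cd3g (1.98, adjusted p = 0.0634), Cd8a (0.87, adjusted p = 0.115), Cd3e (0.26, adjusted p = 0.273) and Cd4 (-0.20, adjusted p = 0.136) were not. The part that T cell numbers have in the immune changes was not tested.

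Cytokine and sensor genes were higher in 13 of 26 and lower in 0 (median change 0.49), and 3 were called higher with the slide block. Of the 26, 2 passed the filter only through the active CRHR1 group. Tnf was 5.37-fold higher (adjusted p = 0.00341), Casp4, an inflammatory caspase, 4.53-fold (adjusted p = 0.00159), Il18bp, which neutralises interleukin 18, 3.30-fold (adjusted p = 0.000869) and Ripk3, a kinase of necroptosis, 2.05-fold (adjusted p = 0.00136). Leukocyte adhesion genes were higher in 6 of 11 and lower in 0 (median change 1.08; 1 with the slide block, Ly9 at 3.95-fold without it). B cell genes gave 1 call among 5, Mzb1 (1.00, adjusted p = 0.00783), and the B cell marker Cd79a gave none (-0.35, adjusted p = 0.147). Of 8 neutrophil genes 0 were called by limma in either direction, 6 had an unadjusted p under 0.05, and without knockout array 5 limma called 5 of them lower. S100a8 and S100a9, the abundant calcium-binding proteins of neutrophils, differed by -0.96 (adjusted p = 0.0983) and -1.09 (adjusted p = 0.0552), with knockout array 5 lowest of its group in both.

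Genes of activated microglia and phagocytes were higher, led by Cst7, a cysteine protease inhibitor known from disease-associated microglia (chromosome 2, 150404490 to 150404549). Cst7 read -3.72, -3.22, -2.24, -3.16 and -1.29 in knockout bulbs and 2.81, 1.46, 1.23, 2.53 and 2.45 in active CRHR1 bulbs. The groups lay far apart, with knockout array 5 nearest to the other group. At 4.82 ± 0.47, or 28.2-fold, this was the largest called rise among named genes measured on at least 4 arrays of both groups (adjusted p = 5.34e-05; slide-block value 6.11, adjusted p = 0.00183). The disease-associated microglia list, Cst7 included, had 6 of 19 higher and 3 lower (median change 0.40), or 3 and 1 with the slide block. Over all genes 9.69% were higher and 18.4% lower, so the share of lower calls did not exceed that of all genes. The 3 lower calls included Apoe, a lipid carrier (-0.31, adjusted p = 0.0261, lost in 4 fits that each left out 1 array, named after its values were seen), and numbered 0 with arrays centred on their median and 1 without knockout array 4, without knockout array 5 or without active CRHR1 array 1. Cd52 was 4.69-fold (adjusted p = 0.00101) and Itgax 3.17-fold higher (adjusted p = 0.00388).

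Of the homeostatic microglia genes 6 of 15 were higher and 3 lower (median change 0.31), or 3 and 0 with the slide block. The 3 lower calls are near the 18.4% of all genes called lower. Gpr84, a receptor induced by inflammation, was 3.65-fold (adjusted p = 0.00117) and Aif1, which encodes the microglial protein IBA1, 2.75-fold higher (adjusted p = 0.00112). P2ry12, the purinergic receptor of resting microglia, was lower by 0.54 with no overlap (adjusted p = 0.00651; slide-block value -0.60, adjusted p = 0.13). Fcrls (-0.83, adjusted p = 0.00961) and Gpr34 (-0.54, adjusted p = 0.0341, lost in 5 fits that each left out 1 array), named after their values were seen, were the other 2 lower members. Among defining markers Csf1r was higher by 0.27 (adjusted p = 0.0492, lost in 13 such fits), and Tmem119 (0.31, adjusted p = 0.0634) and Cx3cr1 (-0.11, adjusted p = 0.538) gave no call.

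Complement, whose early components tag synapses and debris for uptake, was higher in 12 of 16 and lower in 1 (median change 0.98; 6 higher and 1 lower with the slide block). C4b read 3.40, 3.24, 3.93, 3.63 and 3.76 against 5.62, 4.75, 5.08, 5.25 and 5.48. No array of either group came near the other group's range. The change was 1.64 ± 0.17, 3.12-fold (adjusted p = 8.92e-05; slide-block value 2.00, adjusted p = 0.0057). C1qa was 2.57-fold (adjusted p = 0.000446) and C1qb 2.38-fold higher (adjusted p = 0.000611), and the lower member, named after its values were seen, was the complement inhibitor Cd55 (-0.49, adjusted p = 0.00941). All 11 genes for Fc receptors and the phagocyte oxidase were higher (median change 1.08), led by Fcgr4 at 9.82-fold (adjusted p = 0.000426), and 4 were called with the slide block. Of 18 lysosomal genes 11 were higher and 1 lower (median change 0.25), with Ctsc at 2.79-fold (adjusted p = 0.00141) and Grn, which encodes progranulin, at 1.46-fold (adjusted p = 0.000869). Lysosomal calls fell to 5 higher with arrays centred on their median, to 7 without active CRHR1 array 1 and to 0 with the slide block.

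Called genes of reactive astrocytes were higher, with 1 exception, and those of resting astrocytes lower. Gfap, the intermediate filament of reactive astrocytes (chromosome 11, 102751813 to 102751872), read 2.38, 2.27, 2.48, 2.46 and 2.65 against 4.50, 4.05, 3.33, 4.09 and 4.61. The knockout arrays were tightly grouped and all lay below the active CRHR1 arrays, of which array 3 was lowest. The change was 1.67 ± 0.21, 3.18-fold (adjusted p = 0.000265, slide-block value 2.14 with adjusted p = 0.00962). The other Gfap probes gave only 0.28 and 0.49. In all 6 of 15 reactive astrocyte genes were higher (2 with the slide block) and 1 lower, among them Aspg (2.03-fold, adjusted p = 0.000323) and Timp1 (1.61-fold, adjusted p = 0.0138). Of 15 homeostatic astrocyte genes 0 were higher and 5 lower (median change -0.17), 1 of them with the slide block. Slc1a3, a glutamate transporter, was lower by 0.55 (adjusted p = 0.00057), the potassium channel gene Kcnj10 by 0.48 (adjusted p = 0.00457) and Glul, glutamine synthetase, by 0.39 (adjusted p = 0.012), while the markers Aqp4 (-0.14, adjusted p = 0.2) and Gja1 (-0.17, adjusted p = 0.158) gave no call.

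Genes of endoplasmic reticulum and amino acid stress, which arises under protein misfolding or amino acid shortage, were higher in 7 of 14 and lower in 0 (median change 0.24; 3 higher with arrays centred on their median and 2 with the slide block). Trib3, a pseudokinase induced by such stress (chromosome 2, 152163161 to 152163220), read -2.06, -2.15, -2.15, -2.22 and -2.43 against 0.83, -0.02, 0.23, 0.24 and 0.21. The spread within each group was small beside the distance between them. The change was 2.50 ± 0.15, 5.64-fold (adjusted p = 4.38e-07; slide-block value 2.73, adjusted p = 0.000334). Chac1, which degrades glutathione, was 2.01-fold (adjusted p = 0.000171) and the transcription factor gene Atf3 3.68-fold higher (adjusted p = 0.00051). Of 14 cell death genes 4 were higher and 0 lower, with Pmaip1 at 4.04-fold (adjusted p = 0.000496; well above background on 2 of 5 knockout arrays) and Fas at 2.42-fold (adjusted p = 0.000972). Cell cycle genes were higher in 10 of 18 and lower in 3. Top2a was 2.84-fold (adjusted p = 0.00241) and Ccna2 1.84-fold higher (adjusted p = 0.000865), whereas Ccnd2, the cyclin of neuronal precursors, was lower by 0.61 (adjusted p = 0.000192). Cell cycle calls fell to 6 higher and 1 lower with arrays centred on their median, and to 1 higher and 1 lower with the slide block; leaving out knockout array 4 or active CRHR1 array 5 left 1 lower.

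Genes of myelin were lower. Of 15 tested 10 were lower and 0 higher (median change -0.51), 6 also with the slide block. Mog, a glycoprotein on the outer face of myelin (chromosome 17, 37148277 to 37148336), read 1.06, 0.94, 0.54, 1.09 and 1.11 against 0.26, 0.25, -0.08, 0.30 and 0.38. Array 3 was the lowest of either group and the groups did not overlap. The change was -0.73 ± 0.14 (adjusted p = 0.00318; slide-block value -1.11, adjusted p = 0.0226). Cnp, an enzyme of the myelin sheath, was lower by 0.48 (adjusted p = 0.00538). Mbp was lower by 0.64 (adjusted p = 0.00101) by its brightest probe, while the other 2 probes gave 0.12 and 0.03.

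The oligodendrocyte precursor list had 7 of 11 lower and 0 higher (median change -0.30), or 4 with arrays centred on their median, without knockout array 4 or without active CRHR1 array 3, and 2 with the slide block. Lower calls over all genes fell in the same fits from 4311 to 1974, 2671, 3474 and 434, in that order. Bmp4, a growth factor of committed precursors, was lower by 0.59 (adjusted p = 0.000271) and Sox10, the lineage's transcription factor, by 0.31 (adjusted p = 0.0128).

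Olfactory ensheathing glia wrap the axons that enter the bulb, and 8 of their 10 listed genes were lower and 0 higher (median change -0.54; 4 with the slide block). Ngfr, the p75 neurotrophin receptor (chromosome 11, 95430211 to 95430270), read 0.98, 0.78, 0.65, 1.10 and 0.93 against -0.06, -0.17, 0.22, -0.09 and -0.42, with no overlap. It was lower by 0.99 ± 0.11 (adjusted p = 0.000136; slide-block value -1.04, adjusted p = 0.0196). Npy, a peptide made by these glia and by neurons, was lower by 0.69 (adjusted p = 0.000606), the heparin-binding growth factor gene Ptn by 0.62 (adjusted p = 0.000421) and Frzb, a Wnt antagonist, by 0.47 (adjusted p = 0.00175). Ngfr was 0.75 higher in knockout than in Cre GFP bulbs and 0.24 lower in active CRHR1 than in Cre GFP bulbs, and Ptn differed by 0.44 and -0.17 in these comparisons, which share the Cre GFP arrays.

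Among vascular cells, 6 of 13 pericyte and smooth muscle genes were lower and 0 higher (median change -0.29; 2 with the slide block). Rgs5, a pericyte regulator of G proteins, was lower by 0.95 (adjusted p = 0.000984) and Vtn, which encodes vitronectin, by 0.68 (adjusted p = 0.000266). Over the 13 pericyte and smooth muscle genes the median difference from Cre GFP was 0.48 in knockout and 0.12 in active CRHR1 bulbs. The active CRHR1 median was thus not below Cre GFP, and both comparisons share the Cre GFP arrays. Endothelial genes gave 2 higher and 2 lower of 14 (4 higher without knockout array 1), where 9.69% of all genes were higher and 18.4% lower. Their markers Cldn5 (-0.07, adjusted p = 0.538) and Cdh5 (-0.11, adjusted p = 0.327) gave no call. Ly6a, also an interferon-inducible gene, was 2.56-fold higher (adjusted p = 0.00296), and Mfsd2a, the lipid transporter of the blood-brain barrier, was lower by 0.50 (adjusted p = 0.00362).

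In the lists of the bulb's own neurons the share of lower calls did not exceed the 18.4% of all genes. The defining markers of granule cells (6 genes), mitral and tufted cells (4) and dopaminergic cells (3) were well above background on all 15 arrays. Of 19 granule cell genes 0 were higher and 2 lower, Meis2 (-0.32, adjusted p = 0.00829) and Tpbg (-0.52, adjusted p = 0.0234, lost in 3 fits that each left out 1 array), and the median change of -0.09 was near that of all genes and turned to 0.02 with quantile normalization. Without active CRHR1 array 4 the lower count was 4. Gad1 and Slc32a1, needed to make and load GABA, differed by 0.04 (adjusted p = 0.756) and -0.13 (adjusted p = 0.298). Mitral and tufted cell genes gave 2 lower of 11, near the share of all genes. All 11 of their changes were negative, with a median of -0.185 against -0.08 over all genes. Dopaminergic cell genes gave 1 lower of 8, with Th, the enzyme that makes dopamine's precursor, at -0.05 (adjusted p = 0.749). Of genes of migrating neuroblasts 1 of 11 was higher and 2 lower, near the shares of all genes. Genes of olfactory sensory neurons (0 higher and 1 lower of 8), choroid plexus (0 and 1 of 6), blood (0 and 2 of 6) and cortex or anterior olfactory nucleus (0 and 1 of 7) gave 5 lower calls in all, where 18.4% of all genes were called lower.

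Single neuronal genes differed far more than these markers. Htr2c, the serotonin receptor 2C (X chromosome, 143631655 to 143631714), read -0.76, 0.02, -0.32, -0.15 and 0.32 against -2.28, -1.88, -3.76, -3.12 and -2.69. Every active CRHR1 array was below every knockout array by over 1 unit. The change was -2.57 ± 0.30, 5.92-fold lower (adjusted p = 0.000186; slide-block value -2.47, adjusted p = 0.0326), and a second probe gave -1.11. Mas1, which encodes a receptor for an angiotensin peptide, was 3.66-fold lower (adjusted p = 0.000188; slide-block value -1.76, adjusted p = 0.0355), and Cnr1, the cannabinoid receptor gene, 1.56-fold lower (adjusted p = 0.00103). Npy2r, a neuropeptide Y receptor gene, was well above background on 4 knockout, 2 Cre GFP and 0 active CRHR1 arrays. It was at least 7.88-fold lower (adjusted p = 1.07e-05), having passed the filter through the knockout group alone. In the whole list of neuromodulator receptors 7 of 25 were lower, Npy2r among them, and 0 higher (median change -0.08), and 5 were called lower with the slide block.

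Secreted modulators of neurons and of Wnt signalling were lower in 13 of 20 and higher in 0 (median change -0.31), or 6 with arrays centred on their median, 8 without knockout array 5 or without active CRHR1 array 1, and 5 with the slide block. Lower calls over all genes fell in the same fits from 4311 to 1974, 3094, 2595 and 434, in that order. Nell2, a secreted ligand in axon guidance (chromosome 15, 95050575 to 95059563), read 3.90, 3.87, 3.71, 3.91 and 3.82 against 1.97, 1.66, 2.03, 1.94 and 1.56. The arrays of each group were close together, and the change of -2.01 ± 0.11, 4.03-fold lower, shared the smallest adjusted p of the comparison (adjusted p = 2.01e-07; slide-block value -2.25, adjusted p = 0.000219). Tafa1, a secreted chemokine-like protein, was 4.54-fold lower (adjusted p = 0.000171). The synaptic organisers C1ql1 and C1ql3 were 2.06-fold (adjusted p = 8e-05) and 2.91-fold lower (adjusted p = 0.000222). Among growth factors and their binding proteins 2 of 22 were higher and 6 lower, where 9.69% of all genes were higher and 18.4% lower. The higher count is near the share of all genes. Without active CRHR1 array 5 the lower count was 3, and lower calls over all genes fell from 4311 to 2679. Igfbp5 was lower by 0.71 (adjusted p = 2.24e-05) and Cntf by 0.67 (adjusted p = 0.000251).

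Synaptic and channel lists had more falls than rises, each list with a larger share of lower calls than the 18.4% of all genes. Lower calls were 11 of 32 for glutamate receptors and scaffolds (3 higher), 8 of 19 for the GABA synapse, 6 of 27 for vesicle and SNARE genes (1 higher), 8 of 30 for potassium channels (1 higher) and 8 of 24 for sodium and calcium channels (1 higher). With arrays centred on their median the lower counts were 6, 4, 5, 3 and 4, and with the slide block 2, 2, 1, 0 and 1. Over all genes the lower calls fell as well in these fits, from 4311 to 1974 and to 434. Left-out arrays moved the list counts too. Without active CRHR1 array 5 the glutamate, GABA, potassium and sodium and calcium counts were 5, 4, 5 and 4, without active CRHR1 array 1 they were 6, 5, 5 and 4, and without knockout array 4 they were 5, 5, 5 and 5. Lower calls over all genes were 2679, 2595 and 2671 in these fits, in that order. Without knockout array 5 the glutamate and sodium and calcium counts were 7 and 4, without knockout array 1 the GABA count was 5, and without knockout array 2 the sodium and calcium count was 4.

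Grin3a, an NMDA receptor subunit, was lower by 0.64 (adjusted p = 0.00262; slide-block value -1.04, adjusted p = 0.0117). Gabrg1, a GABA-A receptor subunit, was lower by 0.64 (adjusted p = 0.000192; slide-block value -0.54, adjusted p = 0.0478), although a second, dimmer probe gave -0.0041, and Stx1a, a SNARE protein, by 0.59 (adjusted p = 0.000421; slide-block value -0.58, adjusted p = 0.0485). Among the higher members, named after their values were seen, were the AMPA receptor subunits Gria1 (1.26, adjusted p = 0.0152) and Gria2 (1.12, adjusted p = 0.00711) and the SNARE gene Snap25 (0.65, adjusted p = 0.0239, lost in 4 fits that each left out 1 array), none of them called with the slide block (adjusted p = 0.247, 0.0784 and 0.153). A second Gria2 probe gave 0.22.

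Genes of the receptor's own second messenger pathway were more often lower than higher, and by small amounts. Of 33 genes for cyclases, phosphodiesterases, kinases and anchors of cAMP signalling 2 were higher and 17 lower (median change -0.24). The lower count was 6 with arrays centred on their median, 9 without active CRHR1 array 1 or without active CRHR1 array 5, 10 without knockout array 5, 11 without knockout array 4 and 3 with the slide block. Lower calls over all genes fell in the same fits from 4311 to 1974, 2595, 2679, 3094, 2671 and 434, in that order. Pde1a, a calcium-dependent phosphodiesterase, read 0.64, 0.58, 0.55, 0.50 and 0.72 against 0.09, -0.15, -0.09, 0.00 and -0.10, lower by 0.65 ± 0.09 with no overlap (adjusted p = 0.000496; slide-block value -0.50, adjusted p = 0.0942). A second, dimmer Pde1a probe gave -0.26. Akap5, which anchors protein kinase A at synapses, was lower by 0.49 (adjusted p = 0.00123). The 2 higher members were Adcy7, a cyclase of immune cells (0.88, adjusted p = 0.00146), and Rapgef3, the cAMP-activated exchange factor EPAC1 (0.38, adjusted p = 0.00123).

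Known targets of cAMP and CREB did not move one way: 2 of 18 were higher, Cebpb (1.80-fold, adjusted p = 0.00051) and the granin gene Vgf (1.48-fold, adjusted p = 0.00662), and 3 lower, among them Sst, the peptide somatostatin (2.03-fold, adjusted p = 0.000895). Sst is 1 of 4 among 14 genes of the list whose promoter held TGACGTCA. Immediate early genes gave 2 higher of 19 and 0 lower. Nr4a1 read 4.12, 4.45, 4.70, 4.59 and 6.20 against 5.81, 5.90, 5.74, 6.04 and 5.51, and knockout array 5 lay above every active CRHR1 array. Its change of 0.99 (adjusted p = 0.0328) was lost in 7 fits that each left out 1 array. Without knockout array 5 the higher counts were 6 immediate early genes and 7 cAMP targets. Glucocorticoid response genes gave 2 higher and 2 lower of 17. The shares over all genes were 9.69% higher and 18.4% lower.

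Cholesterol synthesis was lower in 12 of 17 genes and higher in 0 (median change -0.32), or 7 with arrays centred on their median and 2 with the slide block. Hmgcs1, which makes the substrate of the pathway's rate-limiting enzyme, read 4.67, 4.67, 4.66, 4.71 and 4.62 against 4.19, 4.27, 4.29, 4.26 and 4.09. The groups were narrow and separate, and the change was -0.45 ± 0.06, 1.36-fold lower (adjusted p = 0.00041; slide-block value -0.56, adjusted p = 0.0148). Sqle was lower by 0.48 (adjusted p = 0.006), Dhcr7 by 0.52 (adjusted p = 0.00267) and Lss by 0.42 (adjusted p = 0.00272).

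Several of the largest single differences were present on one side only. Krt12, a keratin of the cornea (chromosome 11, 99276980 to 99277039), read -8.09, -7.92, -8.16, -8.04 and -8.01 in knockout bulbs, where no array was well above background, and -0.19, 0.07, -1.13, 0.00 and -0.20 in active CRHR1 bulbs. It was at least 189.5-fold higher (adjusted p = 0.00109). Car6, a secreted carbonic anhydrase (chromosome 4, 149561160 to 149561219), read -7.93, -7.78, -7.51, -7.91 and -7.84 against -0.74, -1.14, -0.86, -0.96 and -1.60, at least 103.5-fold higher (adjusted p = 2.01e-07), having passed the filter through the active CRHR1 group alone. Both genes separated the groups fully but differed in the Cre GFP bulbs, where Krt12 was well above background on 4 arrays and Car6 on 0. Pou6f1, a POU-domain factor, was at least 91.2-fold higher (adjusted p = 0.012; with the slide block 0.0547), although active CRHR1 array 3, at -6.22, was as low as the knockout arrays.

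Pttg1, which encodes the sister chromatid regulator securin and is listed as varying between strains (chromosome 11, 43233801 to 43233860), read -1.11, -1.24, -0.83, -0.68 and -0.75 against 3.64, 2.41, 2.58, 2.67 and 3.43. The groups were separated by over 3 units. It was 3.87 ± 0.22 higher, 14.6-fold (adjusted p = 2.01e-07; slide-block value 4.05, adjusted p = 0.000334). Eps8l1 was also 14.6-fold higher (adjusted p = 0.00132), and Dlk1, an imprinted Notch ligand, 2.88-fold (adjusted p = 8.92e-05). On the lower side Fam227b was 9.80-fold (adjusted p = 0.000171), Prph, the intermediate filament peripherin, 4.96-fold (adjusted p = 0.00441) and Slc14a2 3.98-fold lower (adjusted p = 0.00055); of these Prph lost its call with the slide block (adjusted p = 0.0828). Hist2h2bb was 10.8-fold lower (adjusted p = 0.00349; with the slide block 0.133), with knockout array 1 at -4.39, within the active CRHR1 range. Gdpd3, 15.9-fold higher (adjusted p = 0.0444), was at -4.09 and -3.45 on active CRHR1 arrays 3 and 5 against 1.81 to 2.15 on the others of its group, and lost its call in 10 fits that each left out 1 array. With the slide block its change was 0.14 (adjusted p = 0.971), and the Cre GFP arrays of slide 2 were themselves 3.86 above those of slide 1. Around Crhr1 itself, within 10 Mb on chromosome 11, 114 of 417 tested genes were called (27.3%), close to the 28.1% of all genes. This share counts calls and does not describe their size. Krt12, Gfap and Ngfr are among the called genes in that window, and whether their position near Crhr1 has a part was not tested.

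The Cre GFP bulbs showed on which side of the middle group each difference lay. The values in this paragraph come from comparisons that share the Cre GFP arrays. Pttg1 was 3.42 lower in knockout than in Cre GFP bulbs and 0.45 higher in active CRHR1 than in Cre GFP bulbs, and Fam227b differed by 2.86 and -0.43 in the same order. Dlk1 was below Cre GFP in both, by 2.37 and 0.84. For the immune genes the larger step was the other one: Cst7 differed from Cre GFP by 0.60 in knockout and 5.42 in active CRHR1 bulbs, Igtp by 0.51 and 4.13, Nlrc5 by 0.17 and 4.26, and C4b by 0.23 and 1.87. Trib3 differed by -0.24 and 2.26 and Car6 by -0.38 and 6.35. Myelin and receptor genes were divided between the steps, with 0.29 and -0.44 for Mog, 0.98 and -1.58 for Htr2c and 0.77 and -1.10 for Mas1. Cre GFP arrays 4 and 5, on the slide of the active CRHR1 arrays, had interferon-induced GTPase medians of -0.82 and -0.86 relative to the knockout mean, and Cre GFP arrays 1 to 3 of -0.33, -0.05 and -0.42.

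**Figure D5:**
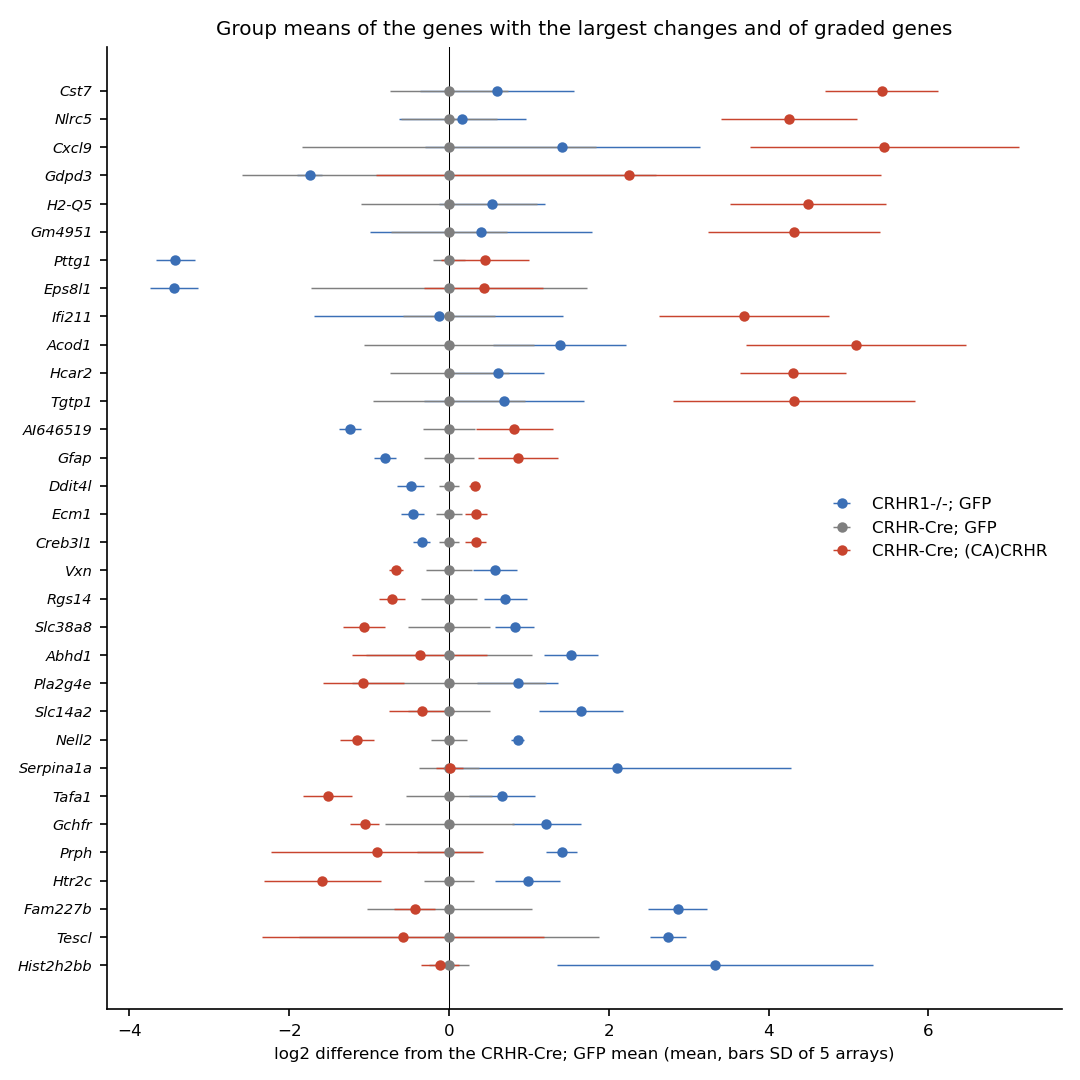
Difference of each group's mean from the Cre GFP mean (log2 units, horizontal axis) for 32 genes, 1 line of 3 points per gene, with bars of 1 SD over 5 arrays. Pttg1 and Fam227b lie far from Cre GFP in knockout bulbs, Cst7 and Nlrc5 in active CRHR1 bulbs, and Nell2 and the other graded genes lie apart on both sides.

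A graded order across all 3 groups, with each step called, was found for 35 genes with a symbol. Nell2 was 0.86 higher in knockout than in Cre GFP bulbs and 1.15 lower in active CRHR1 than in Cre GFP bulbs. Gchfr, a regulator of tetrahydrobiopterin synthesis, differed by 1.21 and -1.05, the transporter gene Slc38a8 by 0.82 and -1.07, Rgs14, a regulator of G protein signalling, by 0.70 and -0.71, and Vxn by 0.57 and -0.66. In the rising direction AI646519 differed by -1.24 and 0.82, Gfap by -0.80 and 0.86, Ddit4l, an inhibitor of mTOR signalling, by -0.48 and 0.32, Ecm1, an extracellular matrix protein, by -0.46 and 0.34, and Creb3l1, a membrane-bound transcription factor, by -0.34 and 0.33. Between the extremes these genes ran from 1.60-fold (Creb3l1, adjusted p = 0.000173) to 4.16-fold (AI646519, adjusted p = 5.34e-05) in the rising direction and from 2.35-fold (Vxn, adjusted p = 0.000171) to 4.82-fold (Gchfr, adjusted p = 0.000476) in the falling one, and the extremes did not overlap in any of the 10. The Gfap values are those of its brightest probe, and its other probes gave 0.28 and 0.49 between the extremes.

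Imprinted genes gave 4 higher and 3 lower of 15, or 2 higher without knockout array 4, without active CRHR1 array 1 or without active CRHR1 array 5, and 5 lower without knockout array 5. Neuropeptide genes gave 2 higher and 4 lower of 20, near the 9.69% higher and 18.4% lower of all genes. Among 17 genes listed as varying between strains 2 were higher and 5 lower, and without knockout array 1, knockout array 4, active CRHR1 array 2 or active CRHR1 array 5 the lower count was 3. The knockout bulbs were the only ones from strain 129S4/SvJae, and what share of the 6582 calls goes with strain was not tested.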

How the data were processed

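Total RNA of 15 olfactory bulbs was measured on 1-colour Agilent arrays of 62976 spots on 2 slides. Per the labels' protocols, TRIzol extraction was followed by DNase I digestion, Cy3 labelling started from 100 ng, and each group held 5 separate mice. Per the file headers, Agilent Feature Extraction version 10.7.3.1 gave every spot a processed intensity, not scaled between arrays, and the quality flags. The authors' deposited series values are a linear ratio, the processed intensity divided by the median of the array's non-control spots, as a comparison with the scanner files showed. Probe coordinates are mm9.

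Control spots and outlier-flagged spots were left out and 0 spots were saturated. Intensities were scaled to the 75th percentile of each array and log2-transformed. Probes well above background on at least 4 of 5 arrays of any group were kept (33981 of 55681), and the brightest kept probe stood for its gene, which gave 23440 genes, 17006 with a symbol. Members that passed only through the active CRHR1 group numbered 5 in the T cell list and 2 each in the chemokine and sensor lists. The GTPase, other interferon-stimulated, interferon and receptor, adhesion and B cell lists held 1 each. So did the Serpina3, reactive astrocyte, cell cycle, immediate early and imprinted lists. Members that passed only through the knockout group, such as Npy2r and Gbp2b, were not counted. Symbols came from RefSeq through accessions for 27593 probes and otherwise from the array design. limma 3.58.1 (lmFit and eBayes, R 4.3.3) was fitted over all 15 arrays with 3 group means, and p-values were Benjamini-Hochberg adjusted over all genes. On simulated data of 23440 genes, 49.3%, 80.6% and 98.5% of genes changed by 0.5, 1 and 2 log2 units were recovered, and 2 of 154 calls were false. The simulated noise was independent between genes and held no slide or strain difference. These shares therefore do not give the rate of calls in the real data that go with slide or strain.

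The arrays compared, the 52 gene lists and the named genes' rule were chosen with earlier results of these data known. The rule names the measured CRH genes, the 12 largest called rises and falls measured on at least 4 arrays of both groups, the 5 largest bounds each way, up to 4 called genes of smallest p in each list, the 5 most graded genes each way, and cell type markers; not all of them are described, and some are not reported here. Alternatives were other normalizations and background corrections, the authors' values, other filters and probe choices, slide as a fixed or random block, an intensity trend, array weights, the 10 arrays alone, the replicate number as a block, stricter thresholds and each array left out. Tables were handled in Python 3.11.15 with pandas 2.3.3 and in R with data.table (version 1.17.8), and figures drawn with matplotlib 3.10.9.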

Additional observations from a re-analysis of the deposited data

Results flagged for a closer look

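In 29 of 480 groups of 5 arrays, over the 160 genes named in the text, 1 array lay far from the other 4, and about 1 in 20 groups does so by chance (Dixon's test). Levels are on the same log2 scale as above.

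Active CRHR1 array 2 was apart in 8 genes, 7 of them immune genes. It read 4.43 in H2-D1 (the others 5.53 to 5.65), 4.37 in H2-Q7 (5.55 to 5.70), 0.57 in H2-Q5 (2.67 to 2.87), 0.54 in H2-DMa (1.80 to 2.03), -1.71 in Itgax (-0.16 to 0.07), -2.07 in Cxcl9 (1.08 to 1.99) and -4.38 in Cd3d (-1.82 to -1.02). In Igfbp5 it read 3.07 (3.25 to 3.31). Active CRHR1 array 3 was low in Mog at -0.0762 (0.25 to 0.38), in Krt12 at -1.13 (-0.20 to 0.07) and in Pou6f1 at -6.22 (0.50 to 1.64).

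Knockout array 3 was high in 3 immune genes, Gbp7 at -0.62 (the others -1.68 to -1.39), Gbp8 at -6.52 (-8.06 to -7.88) and Itgax at -1.37 (-2.38 to -2.13). Knockout array 5 was high in Nr4a1 at 6.20 (4.12 to 4.70) and in Slc32a1 at 7.61 (7.11 to 7.25), and knockout array 1 was low in Hist2h2bb at -4.39 (-0.68 to 0.35).

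Among Cre GFP arrays, array 1 was high in Fam227b at -1.56 (the others -3.91 to -3.82) and in Gbp2b at -7.33 (-8.14 to -7.91). Array 2 was high in Cxcl9 at -1.31 (-5.74 to -5.11), in Cd52 at 1.35 (-0.01 to 0.37) and in Pde1a at 0.79 (0.30 to 0.37), and low in Homer3 at -1.36 (-1.13 to -1.06). Array 3 was high in Trib3 at -1.51 (-2.13 to -1.99). Array 4 was low in Eps8l1 at -4.57 (-1.27 to -0.22) and in Pou6f1 at -6.99 (0.35 to 0.54), and array 5 in Krt12 at -8.21 (-0.98 to 0.39), in Ctsc at -0.92 (-0.71 to -0.64) and in Il18bp at -1.37 (-0.82 to -0.73).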

How the results depend on the processing

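The count of 6582 called genes was 3644 with arrays centred on their median, 3749 with the authors' scaled values and 804 with slide as a fixed block, 2174 at an adjusted p under 0.01 and 872 with a 2-fold minimum added, and between 4090 and 7214 when each of the 15 arrays was left out in turn. It stayed within 1.5 times under the other alternatives: 6090 with quantile normalization, 7834 with normexp, 6539 without a filter, 6458 with the strict filter, 6328 with the mean of probes, 5701 with the 10 arrays alone, 9594 with slide as a random block, 7093 with an intensity trend and 6825 with array weights. The replicate numbers did not pair the arrays: correlations of same-numbered deviations ran from -0.07 to 0.20, 2 of 5 arrays correlated best with their own number, and the fit with the replicate block called 5677 genes. Of the 225 called genes examined singly, the fixed slide block lost 120, and median centring lost 22. Signs turned for Xaf1 (-3.01, adjusted p = 0.0962, with the authors' values; -0.27, adjusted p = 0.765, with the mean of its probes), Homer3 (0.0495, adjusted p = 0.788, with the mean of its probes) and Nr4a3 (-0.00228, adjusted p = 0.988, with normexp). For Xaf1 and Homer3 the kept probes disagree; for Nr4a3 the cause was not tested. Calls near the threshold were lost in some fits that each left out 1 array, with a highest adjusted p of 0.122 for Csf1r, 0.106 for Gdpd3, 0.078 for Cd3d, 0.08 for Gpr34, 0.0721 for Nr4a1, 0.0675 for Apoe, 0.0613 for Tpbg and 0.0606 for Snap25. Median centring also ended the calls of Cx3cl1 and Nr4a1, and quantile normalization those of Cxcl14, Glul, Meis2 and Sox10. List medians near 0 changed sign under some settings for B cells, Serpina3 inhibitors, endothelium, granule cells, dopaminergic cells and imprinted genes. Genes near background, such as Ifng, Npy2r and the T cell markers, are limited by signal over background.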
